A study of Rattus norvegicus with 10 samples.

Results

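The genes described here are 10 members of the circadian clock and of the bZIP factors it drives: the activators Clock and Bmal1, their repressors Per2 and Cry2, the nuclear receptor genes Nr1d1, Nr1d2 and Rora, the PAR bZIP activators Dbp and Tef, and the bZIP repressor Nfil3. A probe set was taken where the platform annotation gave it exactly 1 symbol and that symbol was a member. All 10 members had such a probe set, 16 probe sets in all, among 9378 genes and 15899 probe sets in the table. Liver RNA came from 10 CRL:WI (Han) rats aged 6 to 8 weeks, with 1 array per animal. The 5 control rats received the vehicle, deionized water, and the 5 treated rats received RG3487 at 180 mg/kg, both by oral gavage in 5 ml/kg. The sample labels place the livers at 24 h after dosing, whereas the series text gives 2 h, and the 24 h of the samples is used here. RG3487 is known as a ligand of the alpha-7 nicotinic acetylcholine receptor. The clock time of dosing and of tissue collection, the light cycle, the feeding state and the sex of the rats are not stated in the labels. Animals shared housing by 5, so a housing group may match a treatment group, and these cannot be told apart.

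The circadian clock is a feedback loop of transcription factors that runs in nearly every cell. CLOCK and BMAL1 bind E-boxes and switch on the Per and Cry genes, whose proteins then block CLOCK and BMAL1, and in the same way they drive the genes of the REV-ERB receptors (Nr1d1, Nr1d2) and Dbp. REV-ERB proteins repress, and ROR proteins activate, Bmal1 and other genes through a shared element. DBP, TEF and HLF activate genes through D-boxes, the element that NFIL3 represses, so Dbp and Nfil3 stand on opposite sides of the same sites and in rodent liver peak at opposite times of day. Several D-box targets in the liver serve bile acid, haem and drug metabolism.

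The elements named above can be seen in the promoters of some of the members that moved, but not of all. The 4 promoters shown were picked because they hold a match to an element of the loop. Each is the 250 bases before the start site in RefSeq's annotation of GRCr8, written 5′ to 3′ on the gene's strand, with matches in capitals. Per2 (chr9:99496994-99497243, minus strand) holds a D-box, TTATGTAA, 192 to 185 bases before the start and an E-box variant, CACGTT, 62 to 57 bases before it. Bmal1 (chr1:176766078-176766327, plus strand) holds the core of the REV-ERB and ROR element, TAGGTCA, 16 to 10 bases before the start. Tef (chr7:115206577-115206826, plus strand) and one of the 2 annotated starts of Nr1d1 (chr10:84229455-84229704, minus strand) hold the E-box CACGTG, 198 to 193 and 191 to 186 bases before the start.
Per2: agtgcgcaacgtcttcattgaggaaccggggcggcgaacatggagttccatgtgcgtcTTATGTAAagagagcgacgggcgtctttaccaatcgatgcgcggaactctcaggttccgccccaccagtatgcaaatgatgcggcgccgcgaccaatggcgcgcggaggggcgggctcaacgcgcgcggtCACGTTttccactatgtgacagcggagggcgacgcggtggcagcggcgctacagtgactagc
Bmal1: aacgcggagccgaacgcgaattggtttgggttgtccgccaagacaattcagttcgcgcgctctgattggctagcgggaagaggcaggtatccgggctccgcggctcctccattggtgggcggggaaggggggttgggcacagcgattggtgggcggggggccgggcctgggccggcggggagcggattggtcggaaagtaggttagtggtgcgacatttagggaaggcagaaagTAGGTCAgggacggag
Tef: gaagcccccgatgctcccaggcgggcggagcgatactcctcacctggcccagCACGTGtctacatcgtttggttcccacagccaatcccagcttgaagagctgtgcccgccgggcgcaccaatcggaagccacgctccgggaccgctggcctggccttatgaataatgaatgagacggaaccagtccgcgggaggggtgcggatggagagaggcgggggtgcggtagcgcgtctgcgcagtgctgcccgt
Nr1d1: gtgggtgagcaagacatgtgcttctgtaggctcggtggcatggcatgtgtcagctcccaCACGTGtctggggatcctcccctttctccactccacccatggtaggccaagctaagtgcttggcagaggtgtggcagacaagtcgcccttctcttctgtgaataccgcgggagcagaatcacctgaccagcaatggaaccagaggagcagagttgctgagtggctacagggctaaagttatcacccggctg
Of 12 such windows of the 10 members, 6 held a match to at least 1 of the 6 motifs searched on both strands: the E-box CACGTG, its variant CACGTT, the D-box form TTATGTAA, the D-box form TTACGTAA, the REV-ERB and ROR core TAGGTCA, and a second form of that core, TGGGTCA. The others with a match were the second Nr1d1 start and Cry2, each with AACGTG, the reverse complement of CACGTT. Over all 33469 windows of this length in the table, 5.59% held the E-box and 4.07% its variant. The first D-box form was in 0.828% and the second in 0.108%, and the first REV-ERB and ROR core was in 2.26% and the second in 3.44%. The share of all windows with any of the 6 motifs was not counted, so the 6 of 12 has no like value beside it. The letters were also chosen after these promoters had been seen, so the count is description only. The windows of Dbp, Nfil3, Nr1d2, Rora and Clock held none of these letters, which says nothing of elements outside the window.

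Array means lay between 330 and 332, as they would if the deposited signals had been scaled to a common level. The median signal per array was 85 to 93 in the vehicle group and 92 to 96 with RG3487. The hybridization controls, transcripts added for the hybridization, had a mean log2 signal of 9.85 to 9.94 in vehicle and 9.67 to 9.74 with RG3487. The ratio of 3′ to 5′ signal, a measure of RNA integrity, was 1.14 to 1.24 for Gapdh in vehicle and 1.12 to 1.18 with RG3487. For beta-actin it was 2.97 to 3.60 and 2.73 to 3.54. All 11 hepatocyte markers with a probe set, Alb and Apoa1 among them, passed the filter on dim signals, and their summed signal was 76426 to 81714 in vehicle and 64983 to 76175 with RG3487, with 6 of 11 lower by the limma test described next and 0 higher (also 0 at an unadjusted p under 0.05), where 7.40% of all genes were lower and 22.3% higher. The 7 Kupffer cell and macrophage markers summed to 3887 to 4726 and 2899 to 3511, with 3 lower, and the 5 endothelial markers to 2300 to 2569 and 1949 to 2277, with 1 lower. The 8 stellate cell and fibroblast markers summed to 1370 to 1728 and 1531 to 1780, with 1 higher and 1 lower of 6 tested. Red blood cell markers summed to 2775 to 4105 and 2616 to 3483, lymphocyte markers to 117 to 153 and 96 to 142, and cholangiocyte markers to 122 to 204 and 154 to 294, with none of the 5 tested past the limma threshold and 1, a lymphocyte marker, lower at an unadjusted p under 0.05. No marker was at 0 on all arrays. Whether these shifts had a part in the results below was not tested, and in whole liver fewer cells of a type and less RNA per cell cannot be told apart.

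Dbp, the Per2 and Cry2 repressor genes and both REV-ERB genes were higher in RG3487 livers, while Bmal1, Rora and Nfil3 were lower. Of the 10 members, 6 rose (Dbp, Per2, Nr1d1, Nr1d2, Tef and Cry2), 3 fell (Nfil3, Bmal1 and Rora), and Clock did not pass. Among members, Dbp rose most (5.53-fold), followed by Per2 (2.92-fold), and Nfil3 fell most (2.73-fold lower). The threshold was an adjusted p of 0.05 (Benjamini-Hochberg) in limma, fitted to log2 of signal plus 16 over 11894 probe sets, with a gene represented by its brightest probe set. The same test called 29.7% of all 7727 genes, 22.3% as higher and 7.40% as lower, against 9 of 10 members. At 2-fold or more, 4 members passed (Dbp, Per2, Nr1d1 and Nfil3), against 0.854% of all genes. The members' median log2 change was 0.59, beside 0.09 over all genes. The groups did not overlap in 6 of 10 members, beside 20.2% of all genes. The members had been chosen with results of these data known, so the counts describe them and are no test of the group.

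**Figure D1:**
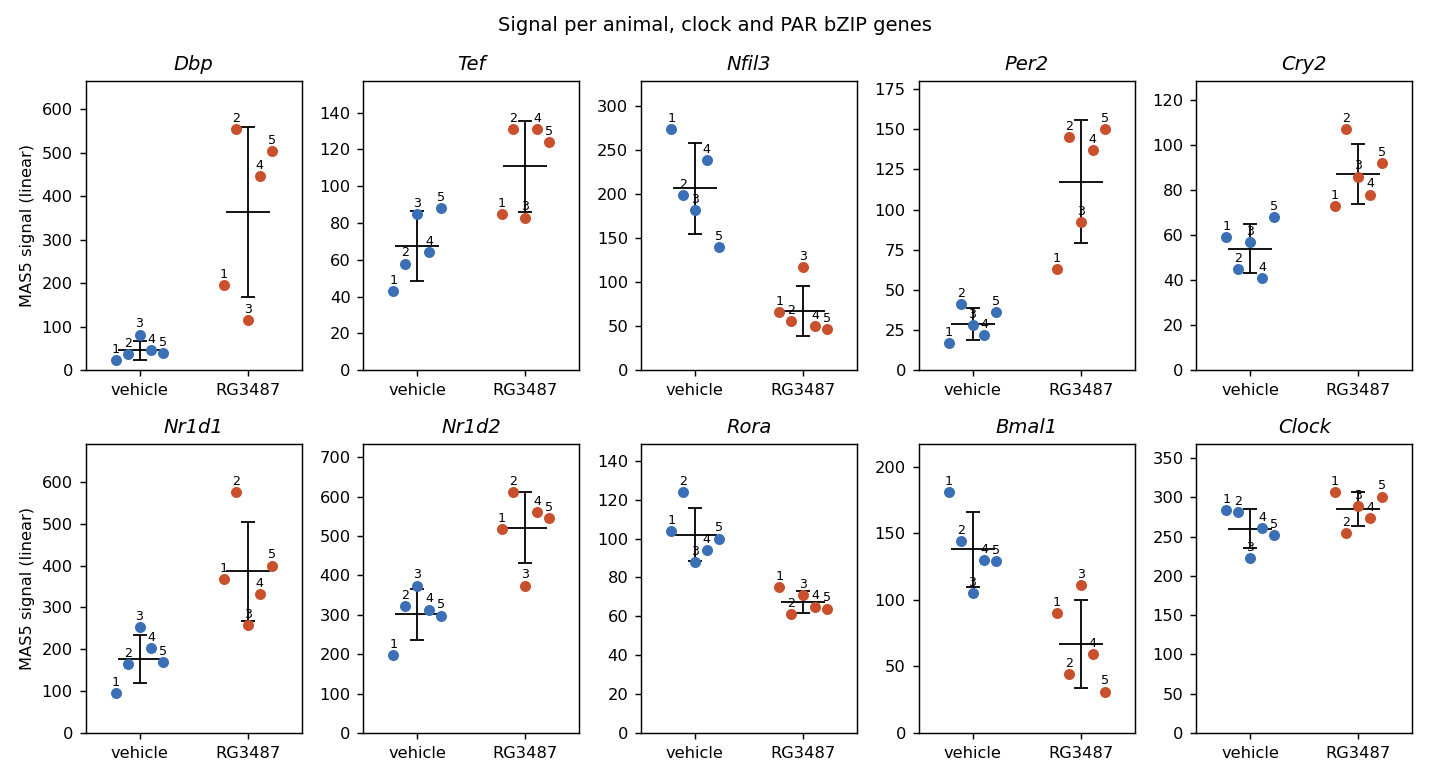
MAS5 signal (linear scale, 1 panel per gene) of the 10 members in each animal, numbered 1 to 5 within the vehicle (blue) and RG3487 (orange) groups; lines and bars are mean and SD, n = 5. Dbp, Per2, Cry2 and Nr1d1 were higher in every RG3487 animal than in any vehicle animal and Nfil3 and Rora lower, while Tef, Nr1d2, Bmal1 and Clock overlapped.

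Dbp encodes a PAR bZIP activator and is one of the most strongly cycling transcripts of rodent liver. Its signal was 24, 37, 82, 47 and 40 in vehicle rats 1 to 5 and 196, 554, 115, 446 and 504 in RG3487 rats 1 to 5. Rats 2, 4 and 5 of the treated group stood well above rats 1 and 3, and the lowest treated rat, rat 3, was still above the highest vehicle rat, also rat 3. The mean went from 46.0 ± 21.8 to 363 ± 195 (SD, n = 5 per group), a log2 change of 2.47 ± 0.38 (SE, adjusted p = 0.000854 in limma), which ranked 4 of 7727 genes from the most increased. Because the vehicle signal was dim, the value depended on the pseudocount: a pseudocount of 1 gave 2.83 and one of 64 gave 1.82, both past the threshold.

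Tef, a second PAR bZIP activator, had a signal of 43, 58, 85, 64 and 88 in the vehicle rats and 85, 131, 83, 131 and 124 in the RG3487 rats. RG3487 rats 1 and 3 lay within the vehicle range and the other 3 above it. The log2 change was 0.61 ± 0.17 (adjusted p = 0.0203 in limma). The call was lost with quantile normalization (0.52, adjusted p = 0.0544) and without RG3487 rat 2, 4 or 5 (adjusted p = 0.0501, 0.0502 and 0.0511), over a range of 0.00236 to 0.0544 for all alternatives. A dimmer Tef probe set, which the filter on low signals removed, read 8 to 19 in vehicle and 17 to 28 with RG3487.

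Nfil3, whose product represses D-box genes, went the other way. Its signal was 274, 199, 182, 239 and 140 in vehicle and 66, 56, 117, 50 and 47 with RG3487. Every treated rat lay below every vehicle rat, and RG3487 rat 3, the lowest for Dbp, was the highest for Nfil3. The mean went from 206.8 ± 51.7 to 67.2 ± 28.8 and the log2 change was -1.45 ± 0.21 (adjusted p = 0.000558 in limma), which ranked 15 of 7727 from the most decreased. With a pseudocount of 64 the change was -1.05.

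Per2 and Cry2 encode repressors of CLOCK and BMAL1. Per2 read 17, 41, 28, 22 and 36 in vehicle and 63, 145, 92, 137 and 150 with RG3487. All treated values were above all vehicle values, and rats 1 and 3 were again the lowest of the treated group. The log2 change was 1.55 ± 0.21, 2.92-fold (adjusted p = 0.000466 in limma), rank 14 of 7727. The change was 1.98 when the pseudocount was 1 and 0.95 when it was 64, so its direction held while its size depended on that choice. Cry2 read 59, 45, 57, 41 and 68 in vehicle and 73, 107, 86, 78 and 92 with RG3487, again with no overlap. Its log2 change was 0.57 ± 0.12 (adjusted p = 0.0054 in limma). The dimmer Cry2 probe set, removed by the filter, read 26 to 40 and 30 to 41, with the groups overlapping almost wholly, so the rise of Cry2 rests on a single probe set.

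Nr1d1 and Nr1d2 encode the haem-binding REV-ERB-alpha and REV-ERB-beta, which repress Bmal1. The Nr1d1 signal was 95, 165, 253, 203 and 169 in vehicle and 367, 576, 258, 331 and 400 with RG3487. The groups did not overlap, but RG3487 rat 3 exceeded vehicle rat 3 by only 5 signal units. The log2 change was 1.07 ± 0.23 (adjusted p = 0.00534 in limma). In RefSeq's annotation the gene overlaps the thyroid hormone receptor gene Thra, known to lie on the opposite strand, and whether signal from the 2 can be separated was not tested. Nr1d2 was measured by 3 probe sets, which moved alike. The brightest read 197, 322, 374, 313 and 298 in vehicle and 517, 612, 374, 560 and 545 with RG3487, a log2 change of 0.77 ± 0.16 (adjusted p = 0.00411 in limma). RG3487 rat 3 equalled vehicle rat 3, the highest of its group, and the other 4 treated rats were above all vehicle rats. The other probe sets gave 0.67 ± 0.17 and 0.59 ± 0.16 (adjusted p = 0.0124 and 0.0154).

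Rora, whose product activates the element that REV-ERB proteins repress, fell. It read 104, 124, 88, 94 and 100 in vehicle and 75, 61, 71, 65 and 64 with RG3487, with no overlap. The log2 change was -0.50 ± 0.09 (adjusted p = 0.00204 in limma).

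Bmal1 encodes the partner of CLOCK and is itself a REV-ERB and ROR target, through elements of the kind printed above. Its signal was 181, 144, 105, 130 and 129 in vehicle and 90, 44, 111, 59 and 31 with RG3487. RG3487 rat 3 lay just above the lowest vehicle rat, and the other 4 treated rats were below all vehicle rats. The mean went from 137.8 ± 27.9 to 67.0 ± 33.0, and the log2 change was -0.97 ± 0.24, 1.95-fold lower (adjusted p = 0.0107 in limma). Clock did not pass. Its brightest probe set read 284, 281, 223, 261 and 252 in vehicle and 307, 255, 289, 274 and 301 with RG3487, a log2 change of 0.13 with a 95% interval of -0.04 to 0.30 (adjusted p = 0.246 in limma). A second probe set gave -0.10 (interval -0.29 to 0.09, adjusted p = 0.408), and the dimmest, removed by the filter, read 12 to 25 in vehicle and 20 to 23 with RG3487. For the brightest probe set the upper limit of the interval is a 1.23-fold rise. With arrays scaled to the hybridization controls, that probe set passed as higher (0.32, adjusted p = 0.00287), and the second changed sign to 0.09.

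**Figure D2:**
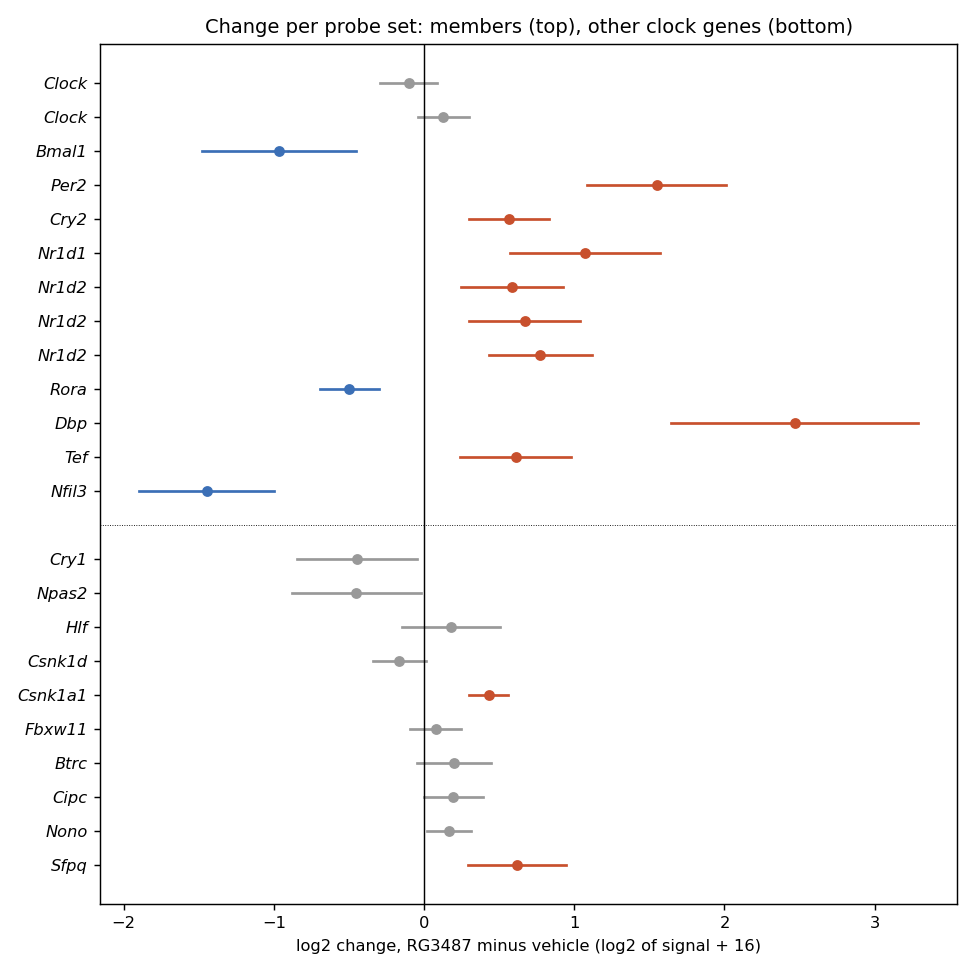
Log2 change (RG3487 minus vehicle, log2 of signal plus 16) with its 95% limma interval for each tested member probe set (above the dotted line) and for 10 other clock genes (below); orange and blue passed as higher and lower, grey did not pass. Dbp at 2.47 and Nfil3 at -1.45 mark the ends, the 3 Nr1d2 probe sets lie between 0.59 and 0.77, and both Clock intervals cross 0.

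Within each group, the same animals were often at the ends of the range for several members. In the vehicle group rat 1 had the lowest signal for 5 of the 6 genes that rose (all but Cry2) and the highest for 2 of the 3 that fell, Bmal1 and Nfil3. In the RG3487 group rat 3 had the lowest signal for 4 of the 6 (Dbp, Tef, Nr1d1 and Nr1d2) and the highest for the same 2, Bmal1 and Nfil3. RG3487 rat 1 had the lowest signal for the remaining pair, Per2 and Cry2. Other members did not follow this order: in the vehicle group Cry2 was lowest in rat 4 and Rora highest in rat 2, and Dbp was highest in rat 3 while Nfil3 was lowest in rat 5. RG3487 rat 3 thus stood nearest to the vehicle animals for Dbp, Tef, Nr1d1, Nr1d2, Bmal1 and Nfil3. Its array also had the lowest median signal of its group, 92 against 95 to 96. The array of vehicle rat 1 went the other way, with the highest median of its group, 93 against 85 to 91. The part of the array medians in the order of the animals was not tested.

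The distance between Dbp and Nfil3, chosen for their opposite changes, gives a single value per animal. It is the log2 signal of Dbp minus that of Nfil3, each taken relative to its vehicle mean. The vehicle rats lay at -0.98, -0.14, 0.86, -0.14 and 0.40, and the RG3487 rats at 3.25, 4.86, 1.86, 4.68 and 4.92. The groups are apart by construction, since neither gene overlapped between them, so only the order within a group is described: RG3487 rat 3 was the lowest treated rat and vehicle rat 1 the lowest vehicle rat. With 5 animals per group and the groups apart, no correlation across animals was computed.

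**Figure D3:**
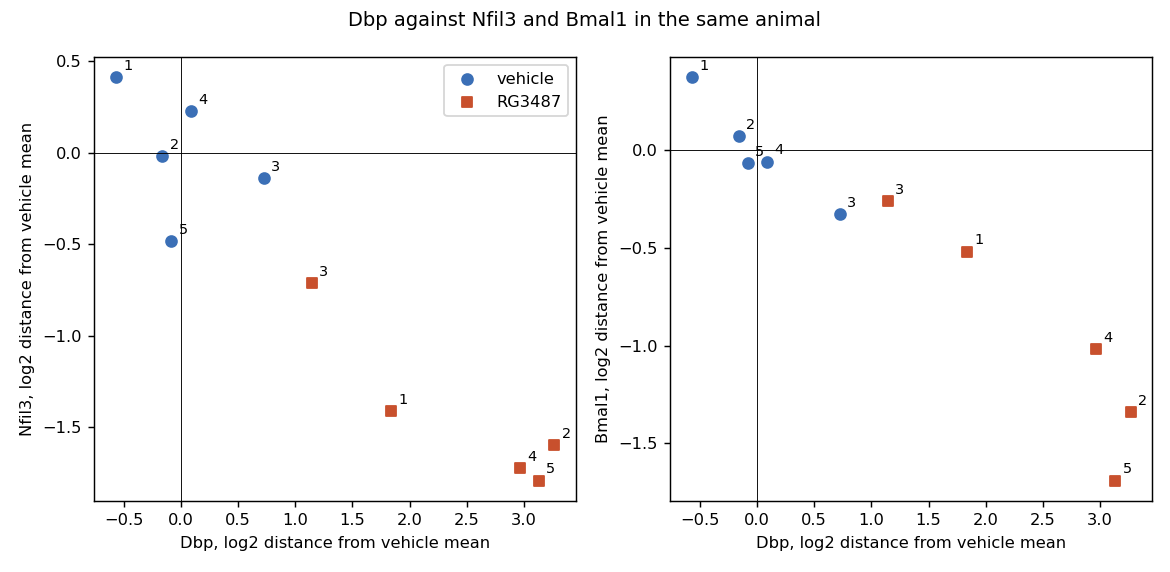
Each point is an animal (circles vehicle, squares RG3487, numbers as in the labels), placed by its log2 distance from the vehicle mean for Dbp (horizontal) and for Nfil3 (left) or Bmal1 (right). RG3487 rats 2, 4 and 5 sit at the far right, with Dbp between 2.96 and 3.27, and RG3487 rat 3, at 1.14, lies closest to the vehicle animals in both panels.

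Spread between animals of the same group was wide for most members. The pooled SD within groups on the log2 scale was 0.74 for Dbp, 0.45 for Bmal1, 0.44 for Nr1d1, 0.40 for Per2 and 0.39 for Nfil3, where the median over all genes tested was 0.143. Of all genes tested, 99.4% had a smaller spread than Dbp, 97.9% than Bmal1, 97.7% than Nr1d1, 97.1% than Per2 and 96.9% than Nfil3. Tef (94.6%) and Nr1d2 (93.2%) also exceeded most genes, and Cry2 was at 78.9%. Clock (33.6%) and Rora (44.0%) varied less than the median gene. The percentages were not adjusted for signal, and whether spread on this scale depends on signal was not tested.

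Other clock genes were taken from a list of 23, of which 15 had a probe set and 10 passed the filter. Of these 10, 2 rose and 0 fell, and at an unadjusted limma p under 0.05 it was 3 and 2. The same test called 22.3% of all genes as higher and 7.40% as lower. Their median log2 change was 0.17, beside 0.09 over all genes. Csnk1a1, a casein kinase that acts on PER proteins, rose by 0.43 ± 0.06 (494.4 ± 18.2 to 672.2 ± 46.8, adjusted p = 0.000506 in limma), and a second probe set rose by 0.27. Sfpq, an RNA-binding protein found with PER, rose by 0.62 ± 0.15 (141.0 ± 36.3 to 220.8 ± 29.1, adjusted p = 0.0101 in limma). Npas2, a substitute for CLOCK, read 159, 96, 104, 108 and 104 in vehicle and 103, 61, 112, 88 and 44 with RG3487 (-0.45 ± 0.20, adjusted p = 0.106 in limma). Cry1 read 119, 93, 67, 83 and 102 in vehicle and 69, 60, 106, 43 and 49 with RG3487 (-0.45 ± 0.18, adjusted p = 0.0889 in limma). In both, vehicle rat 1 and RG3487 rat 3 were the highest of their groups, as they were for Bmal1 and Nfil3. Without RG3487 rat 3 both passed as lower, Npas2 at -0.56 (adjusted p = 0.0491 in limma, range 0.0491 to 0.26 over the alternatives) and Cry1 at -0.61 (adjusted p = 0.0113 in limma, range 0.0113 to 0.218). Npas2 also passed with the replicate block (adjusted p = 0.0492 in limma), and Cry1 with array weights (-0.49, adjusted p = 0.045 in limma).

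Hlf, which encodes a further PAR bZIP activator, did not pass with any of its 3 probe sets, whose log2 changes were 0.06, 0.18 and 0.26 (adjusted p = 0.738, 0.402 and 0.262 in limma). Changes of the other genes that did not pass were 0.20 for Btrc, 0.19 for Cipc, 0.17 for Nono, 0.08 for Fbxw11 and -0.16 for Csnk1d. The other tested Csnk1d probe sets gave 0.08, 0.02 and -0.03, and none passed. A second Nono probe set passed at 0.25 (adjusted p = 0.0141 in limma). Per3, a relative of Per2, was too dim to pass the filter and was not tested. It read 10, 6, 11, 2 and 10 in vehicle and 23, 40, 16, 27 and 37 with RG3487, so the groups did not overlap, and RG3487 rat 3 was again the lowest of its group. Bhlhe41 read 0 to 6 and 2 to 23, Bhlhe40 17 to 63 and 17 to 54, Timeless 14 to 32 and 23 to 36, and Csnk1e 15 to 26 and 15 to 24, all without a test.

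Known liver outputs of the clock and of its bZIP and REV-ERB factors were called about as often as all genes, both directions together. Of a list of 25, 20 had a probe set and 16 passed the filter, and of these 2 rose, 3 fell and 11 did not pass. That is 5 of 16 called, beside 29.7% of all genes. By direction it is 2 of 16 higher, beside 22.3% of all genes, and 3 of 16 lower, beside 7.40%. The median log2 change was -0.13, beside 0.09 over all genes. Cyp7a1, a DBP target whose enzyme limits the rate at which bile acids are made, read 46, 39, 16, 18 and 83 in vehicle and 58, 269, 162, 298 and 503 with RG3487. Only RG3487 rat 1 lay within the vehicle range. The log2 change was 2.14 ± 0.45 (adjusted p = 0.00503 in limma). Tfrc, the transferrin receptor, was just past the threshold at 0.60 ± 0.21 (adjusted p = 0.0496 in limma), and lost the call in 14 of 22 alternatives (adjusted p up to 0.114). A dimmer Tfrc probe set did not pass (0.47, adjusted p = 0.134 in limma). Without vehicle rat 2, 3 or 4 or RG3487 rat 2, 4 or 5 the list had 1 higher gene.

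Lpin1, a regulator of fat metabolism, fell by 0.93 on the log2 scale (352.4 ± 80.5 to 176.0 ± 31.6, adjusted p = 0.00122 in limma) with no overlap. Fgf21, a fasting hormone whose gene NFIL3 can repress, changed by -0.70 ± 0.20 (adjusted p = 0.0192 in limma). Fmo5, a monooxygenase, changed by -0.51 ± 0.17 (adjusted p = 0.043 in limma) and lost the call in 12 of 22 alternatives, leaving out any single vehicle rat among them. Abcb1a, a drug export pump (0.44), Cyp2c6v1, a cytochrome P450 (-0.13), and Insig2, a REV-ERB target in sterol control (-0.26), did not pass (adjusted p = 0.0627, 0.0718 and 0.109 in limma). A second Insig2 probe set passed as lower (-0.29, adjusted p = 0.0375 in limma). The second Abcb1a probe set changed by only 0.008 (adjusted p = 0.975 in limma). Alas1 and Por, of haem synthesis and P450 electron transfer, are known D-box targets and did not pass. They changed by 0.25 and -0.14 (adjusted p = 0.462 and 0.417 in limma). A dimmer Por probe set changed by 0.07 (adjusted p = 0.712 in limma).

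The genes whose signals followed each member most closely over the 10 arrays were found among 7727 by the root-mean-square difference in log2 distance from the vehicle mean, which takes in the group difference. Nearest to Dbp were the glutathione transferase gene Gstm3 (0.65 log2 units), the p53 target Phlda3 (0.70) and Mybl1 (0.78), a MYB family factor. Nearest to Per2 were the steroid dehydrogenase gene Hsd17b2 (0.21), the glutathione transferase gene Gsta3 (0.29) and Synpo (0.32). Nfil3 was followed by Wsb1 (0.23), Pnrc1 (0.24) and Rnf125 (0.30), and Bmal1 by Lgalsl (0.25), Dpyd (0.26), an enzyme of pyrimidine breakdown, and Pnrc1 (0.28). None of these is among the members or the clock lists. Dbp had no neighbour as close as those of the other 3.

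Scaling bears on the size of the changes given above and on the balance of directions over all genes. The median log2 change of all genes was 0.09 as deposited, 0.02 with quantile normalization or median centring, and 0.29 with arrays scaled to the hybridization controls. Of all probe sets called, 74.1% were higher as deposited, 54.3% with quantile normalization, 50.4% with median centring and 95% with hybridization control scaling. The 9 members that passed kept their direction under all of these, with Dbp at 2.66, Per2 at 1.74, Nfil3 at -1.25, Bmal1 at -0.77 and Rora at -0.30 under the last.

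**Figure D4:**
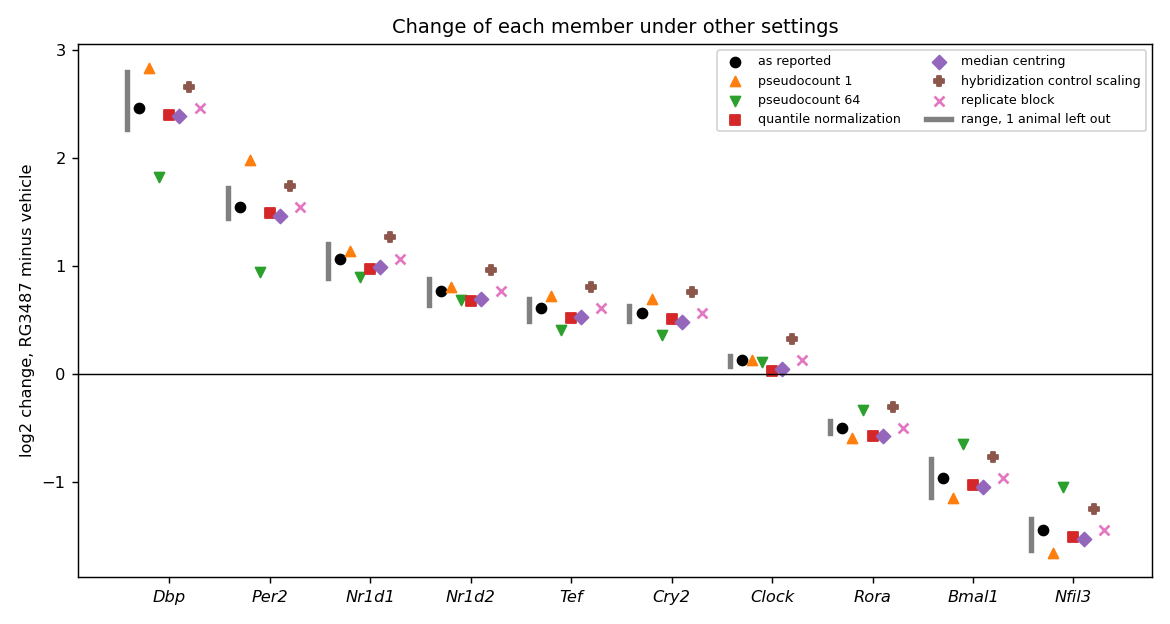
Log2 change (RG3487 minus vehicle) of each member's brightest probe set as reported and under other pseudocounts, scalings and the replicate block, with grey bars for the range when 1 animal was left out. The pseudocount of 64 gives the smallest change for Dbp (1.82), Per2 (0.95) and Nfil3 (-1.05), and the 6 genes that rose and the 3 that fell stay on their side of 0.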

How the data were processed

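The authors deposited a MAS5 signal intensity per probe set, per the submitters' processing notes, in whole numbers on a linear scale. Neither its version nor its scaling target is stated in the labels. Symbols came from the platform annotation, updated through Entrez identifiers (1 changed). Of 15899 probe sets, 40 controls and the dimmest 25% by mean log2 signal were left out, which left 11894. Groups were compared with limma 3.58.1 in R 4.3.3 (lmFit, eBayes with trend) on log2 of signal plus 16, two-sided, with Benjamini-Hochberg adjustment over all 11894. The code was tested on simulated data. The number of arrays limits the precision, and nothing beyond 1 array per animal is known of batches.

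All members, both further lists (other clock genes and clock outputs) and the cell type markers were chosen with earlier results of these data known, as were the tests. Motif letters were set after the promoters had been seen. Genes named are all members, every measured gene of the other clock list, the 8 clock outputs with the smallest p, and the 3 nearest genes of Dbp, Per2, Nfil3 and Bmal1. Alas1 and Por were named after their values were seen. Alternatives were other pseudocounts, scalings, filters, eBayes settings, array weights, a replicate block, a 1.5-fold minimum, the probe set of smallest p for a gene, and leaving out each array in turn.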

Additional observations from a re-analysis of the deposited data

Results flagged for a closer look

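Each group of 5 animals was examined with Dixon's ratio, the gap of an extreme value over the range, whose critical value is 0.71 for 5 animals. Of 32 checks over the 16 member probe sets, 2 exceeded it, where chance gives about 1 in 20. In the dimmest of the 3 Nr1d2 probe sets, RG3487 rat 3 read 46 and the next animal 79 (ratio 0.825). In a Clock probe set, RG3487 rat 1 read 163 and the next animal 135 (ratio 0.782). Without RG3487 rat 3 that Nr1d2 probe set changed by 0.72 in place of 0.59.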

How the results depend on the processing

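Of 675 comparisons of single genes with an alternative, 616 kept direction and side of the threshold, 33 lost the call, 20 gained it and 6 changed sign. The sign changes were all in genes that had not passed: with hybridization control scaling the second Clock probe set (0.093), Csnk1d (0.031) and Cyp2c6v1 (0.070), with quantile normalization Cyp2c6v1 (0.034) and Fbxw11 (-0.019), and with median centring Fbxw11 (-0.0011). Member counts of 6 higher and 3 lower became 3 higher and 2 lower when the dimmest 50% of probe sets were left out, since fewer members were then tested, and were 5 to 6 and 3 with an animal left out. At 1.5-fold or more they were 5 higher and 2 lower, since Cry2 (1.48-fold) and Rora (1.41-fold lower) fell short. With 3 lower in each, 5 members were higher under quantile normalization and 7 under hybridization control scaling. Other clock genes, 2 higher and 0 lower, had 1 lower gene with quantile normalization, median centring, array weights and the replicate block, 6 higher with hybridization control scaling, 1 higher at 1.5-fold or more, and 2 to 3 higher and 0 to 2 lower with an animal left out. Clock outputs, 2 higher and 3 lower, had 1 higher gene with quantile normalization, median centring, no filter, eBayes without trend, robust eBayes and array weights, 5 lower when the probe set with the smallest p stood for a gene, and 1 to 3 higher and 2 to 3 lower with an animal left out.

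Over all probe sets, 2443 were higher and 852 lower, with 1418 higher under quantile normalization, 1359 and 1335 under median centring, 6683 and 354 under hybridization control scaling, 249 and 213 at 1.5-fold or more, and 1803 to 2560 and 688 to 889 with an animal left out. Apart from the filter and the scalings, whose construction changes what is tested or centred, the cause was not tested. Same-numbered animals deviated from their group means with correlations of -0.04 to 0.17, and 1 of 5 matched its own number best, so the numbers were not taken as pairs. With the replicate number as a block 2098 probe sets were higher and 820 lower, and the member counts stayed at 6 and 3. Vehicle signals of Dbp, Per2, Cry2 and Tef were dim, which limits how well the size of their folds is known. The log2 change of Cry2 ran from 0.36 to 0.76 over the alternatives.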
